A study of Mus musculus with 8 samples.

Results

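The levels of 9 microglia marker genes were followed in mouse olfactory bulb across 2 rearing environments and 2 kinds of inhaled air: Cx3cr1, P2ry12, Csf1r, Tmem119, Trem2, Tyrobp, Itgam, Aif1 and Cd68. They were taken by name, and every noncontrol probe carrying one of the names was used. The array held 15 such probes among 55681 noncontrol probes, and the 9 genes stood among 34797 gene names. All 15 probes were well above background on each of the 8 arrays.

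The study asked whether the rearing environment modifies the response of the olfactory bulb to diesel exhaust. Male C57BL/6J mice were reared from late gestation either in a standard cage (C) or with environmental enrichment (EE), a larger cage with a running wheel, a small house, blocks and tubes. From postnatal day 28 to postnatal day 55 they breathed clean air (C) or diesel exhaust (DE, 90 µg/m3) for 8 hours per day over 28 days, and they kept their housing type during the exposure. The groups at 56 days of age were C-C (standard cage, clean air), C-DE (standard cage, diesel exhaust), EE-C (enrichment, clean air) and EE-DE (enrichment, diesel exhaust).

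RNA of each group was pooled and each pool was divided over 2 one-colour arrays, so that a group is 1 pool and its arrays are repeat measurements of it. The spread between the arrays of a pool therefore holds no variation between mice, and no test of exposure or housing was possible. The values below are the log2 signal minus the 75th percentile of the array, called the log2 level. A change is the difference between the mean log2 levels of 2 pools, its range covers the 4 ways to pair the arrays of both pools, and 1.5-fold (0.585 on the log2 scale) was the threshold for calling it. Exposure was compared within standard-cage mice (C-DE/C-C, the standard-cage comparison) and within enriched mice (EE-DE/EE-C, the enriched comparison). Housing was compared in clean air (EE-C/C-C, the clean air housing comparison) and in diesel exhaust (EE-DE/C-DE, the diesel housing comparison), and both factors at once in EE-DE/C-C, the combined comparison. The comparisons share pools with each other. The 2 standard-cage pools occupied one column of the slide and those of enriched mice the second column, so housing and slide column cannot be told apart. On EE-DE array 1, 56.7% of noncontrol spots were well above background, and on the other arrays 68.0 to 70.6%.

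Microglia are the resident macrophages of the brain parenchyma. They survey neurons and synapses with motile processes, clear debris and dying cells, and in the olfactory bulb live in a tissue with lifelong turnover of interneurons and of incoming sensory axons. Resting microglia are known for high expression of receptors such as P2ry12, Tmem119 and Cx3cr1, whereas damage and phagocytosis are known to lower these genes and to raise lysosomal and antigen-handling genes. In RNA of whole tissue, fewer cells of a type and less RNA per cell cannot be told apart.

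None of the 9 marker genes passed 1.5-fold in any of the 5 comparisons of pools. Of the 14 probes that passed all filters, 0 were called in the standard-cage comparison, where 0.576% of all 21709 passing probes were called. The count was also 0 in the enriched comparison (background 0.944%), the combined comparison (0.815%), the clean air housing comparison (0.825%) and the diesel housing comparison (0.636%). At these low backgrounds, a count of 0 among 14 probes is near what the whole array gives. Over 5 comparisons, 15 probes and 4 pairings there were 300 single differences, the largest was 0.45 in size, and 0 of them reached the threshold. The gene count takes Cd68 from its passing probe and Cx3cr1, Csf1r and Itgam from the mean of their probes. Over the 8 arrays, the log2 level of a passing probe spanned 0.155 to 0.46, with a median span of 0.26.

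**Figure D1:**
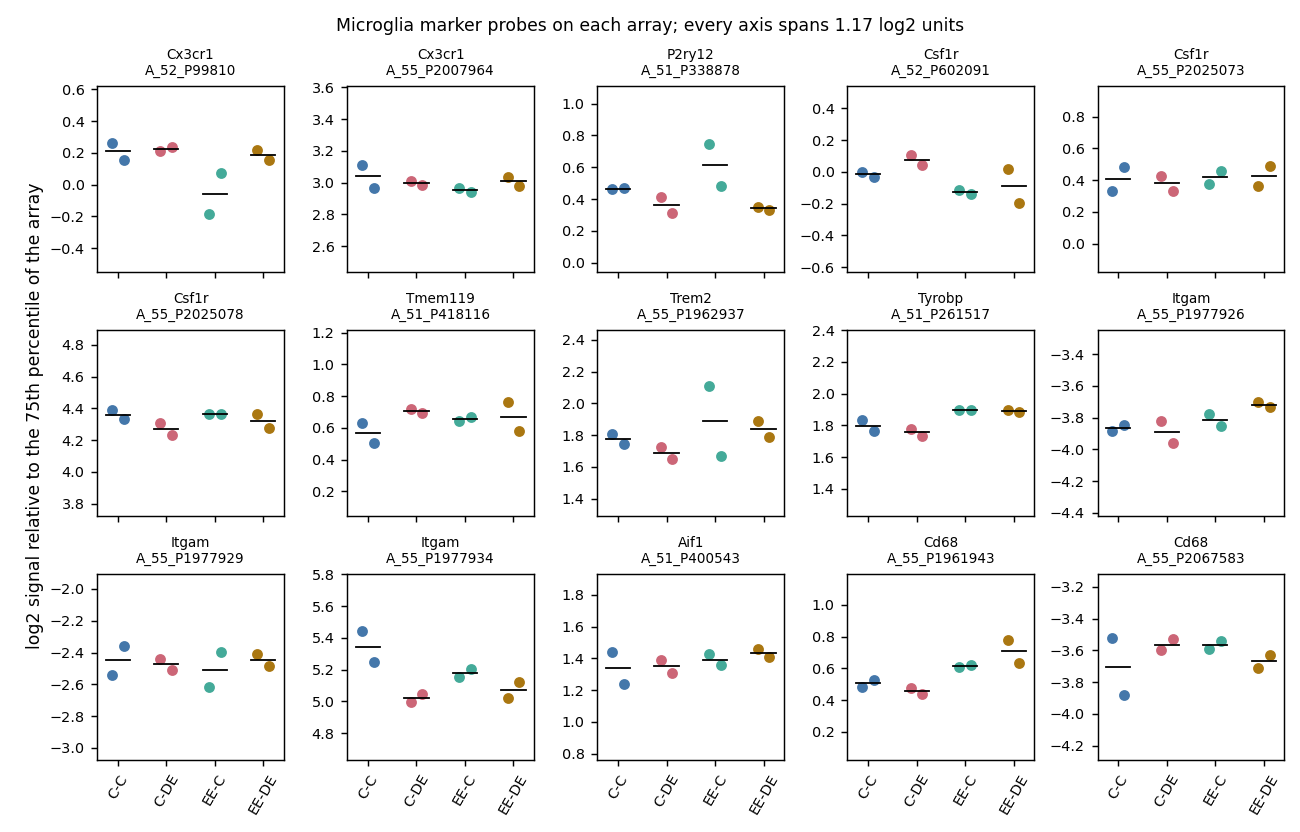
Log2 signal relative to the 75th percentile of the array (y axis) for each of the 15 marker probes on the 2 arrays (points) of each of the 4 pools (x axis), with the mean of each pool as a bar. Each panel has its own level but the same height of 1.17 log2 units, so equal distances are equal changes. P2ry12 lies lower on the 4 diesel exhaust arrays, and Tyrobp and the Cd68 probe A_55_P1961943 lie higher on the 4 enriched arrays, in each case by far less than 1.5-fold.

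The sequences of 4 probes are shown because the results below turn on them. The Tyrobp probe is the one passing marker probe with its 4 enriched arrays above its 4 standard-cage arrays, and the 3 Itgam probes did not give like values. They are the array's own 60-base probes, given 5′ to 3′, and the mm9 (NCBI37) positions are those of the array design. For the third Itgam probe the first 30 bases are given, with an uninterrupted CA repeat in capitals.
Tyrobp A_51_P261517 (chr7:31200651-31202378): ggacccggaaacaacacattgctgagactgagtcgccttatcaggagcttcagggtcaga
Itgam A_55_P1977926 (chr7:135212140-135212199): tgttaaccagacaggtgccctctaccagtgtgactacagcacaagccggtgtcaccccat
Itgam A_55_P1977929 (chr7:135260275-135260334): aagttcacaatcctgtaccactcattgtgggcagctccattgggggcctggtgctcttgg
Itgam A_55_P1977934 (chr7:135261755-135261814): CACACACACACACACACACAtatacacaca
The Tyrobp coordinates span 1728 bases for a probe of 60 bases, more than the probe's own length. The CA repeat of the third Itgam probe is 20 bases long (10 units), and 22 of 55681 noncontrol probes (0.0395%) hold the same 20 bases.

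P2ry12, the ADP receptor that directs microglial processes towards sites of injury, gave the largest change of a marker gene between exposed and unexposed pools. Its log2 level (A_51_P338878, NM_027571) was 0.46 and 0.47 on the C-C arrays and 0.41 and 0.31 on the C-DE arrays. It was 0.745 and 0.48 on the EE-C arrays and 0.35 and 0.33 on the EE-DE arrays. The 4 diesel exhaust arrays thus all lay below the 4 clean air arrays, the nearest values being 0.41 and 0.46. The change was −0.10 in the standard-cage comparison (range −0.16 to −0.05) and −0.27 in the enriched comparison (range −0.41 to −0.135), which is 0.932 and 0.827 as a ratio. Under the processing alternatives and with each array left out, the sign of both changes stayed negative. A complete separation of this kind, diesel exhaust below clean air, was found for 3.08% of all passing probes. A change of at least this size was found for 27.7% of probes in the standard-cage comparison and for 5.08% in the enriched comparison.

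On EE-C array 1 the P2ry12 spot lay in an area where the neighbouring spots (178 within 10 rows and columns) deviated by 0.16 from their usual level, against at most 0.041 in size on the other 7 arrays. Without that array the change in the enriched comparison was −0.14, and without EE-C array 2 it was −0.405. After correction for the local deviation it was −0.155. The pools ranked EE-DE, C-DE, C-C and EE-C from low to high, of which EE-DE and C-DE overlapped.

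Cx3cr1, the receptor for the neuronal chemokine fractalkine, was read by 2 probes (NM_009987). The log2 level of A_55_P2007964 was 3.11 and 2.97 in C-C, 3.01 and 2.985 in C-DE, 2.97 and 2.94 in EE-C and 3.03 and 2.98 in EE-DE. That of A_52_P99810 was 0.26 and 0.16 in C-C, 0.21 and 0.23 in C-DE, −0.19 and 0.07 in EE-C and 0.22 and 0.155 in EE-DE. Both probes had their lowest pool in EE-C, and in both the 2 EE-C arrays lay below the arrays of C-C and of EE-DE. The probes differed in size, and the clean air housing comparison was −0.27 (range −0.45 to −0.085) for A_52_P99810 and −0.09 (range −0.17 to −0.003) for A_55_P2007964. In the enriched comparison they gave 0.24 and 0.055. The EE-C arrays of A_52_P99810 lay 0.26 apart, and without EE-C array 1 its change was −0.14 in the clean air housing comparison and 0.11 in the enriched comparison. With normexp background correction the mean of both probes in the clean air housing comparison was −0.32 in place of −0.18. In the standard-cage comparison the mean of both probes was −0.015 (range −0.08 to 0.05) and the arrays overlapped.

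Csf1r, the receptor for Csf1 and Il34 on whose signalling microglia depend for survival, was read by 3 probes of NM_001037859. The change of their mean lay between −0.03 and 0.001 in the 5 comparisons. The log2 level of A_55_P2025078 was 4.39 and 4.33 in C-C, 4.31 and 4.23 in C-DE, 4.37 and 4.36 in EE-C and 4.36 and 4.28 in EE-DE, a span of 0.155. In A_52_P602091 the EE-C arrays (−0.115 and −0.14) lay below the C-C arrays (0.002 and −0.03), with a change of −0.11, while the other Csf1r probes gave overlapping arrays there. The 3 probes thus gave no common direction.

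Tmem119, a membrane protein used to tell microglia from other macrophages, had log2 levels (A_51_P418116, NM_146162) of 0.63 and 0.505 in C-C and of 0.72 and 0.69 in C-DE. They were 0.64 and 0.67 in EE-C and 0.76 and 0.58 in EE-DE. The C-DE arrays lay above the C-C arrays, with a change of 0.14 (range 0.06 to 0.22), whereas the enriched comparison was 0.015 (range −0.09 to 0.12) with overlapping arrays. C-C was the lowest pool and C-DE the highest, and C-DE overlapped its neighbour EE-DE. Tmem119 and P2ry12 are both known as markers of resting microglia, and in the standard-cage comparison P2ry12 was lower and Tmem119 higher, each without overlap of the arrays.

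Trem2, a lipid-sensing receptor of microglia, signals through the adaptor Tyrobp. The log2 level of Trem2 (A_55_P1962937, NM_031254) was 1.81 and 1.74 in C-C, 1.72 and 1.65 in C-DE, 2.11 and 1.67 in EE-C and 1.89 and 1.79 in EE-DE. The EE-C arrays differed from each other by 0.44, more than the means of any 2 pools, and array 1 again had a local deviation of 0.14 around the spot. Its lowest pool was C-DE, apart from C-C, and its highest EE-C, which overlapped its neighbour. The housing difference in clean air was 0.11, and without EE-C array 1 it was −0.11. Trem2 differed by −0.09 in the standard-cage comparison (range −0.16 to −0.02) and by 0.155 in the diesel housing comparison (range 0.07 to 0.24), and in both the arrays did not overlap.

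The Tyrobp arrays of a pool differed by at most 0.07. Its log2 level (NM_011662) was 1.83 and 1.76 in C-C, 1.78 and 1.74 in C-DE, 1.899 and 1.899 in EE-C and 1.89 and 1.88 in EE-DE. All 4 enriched arrays lay above all 4 standard-cage arrays, with a mean difference of 0.12, and the nearest values were 1.88 and 1.83. The pools ranked C-DE, C-C, EE-DE and EE-C from low to high, and C-DE overlapped its neighbour. Enrichment above standard on all arrays was found for 4.04% of passing probes. The change was 0.10 in the clean air housing comparison (range 0.06 to 0.14) and 0.13 in the diesel housing comparison (range 0.105 to 0.16). With exposure it was −0.04 in the standard-cage comparison (range −0.10 to 0.016) and −0.01 in the enriched comparison (range −0.015 to −0.004).

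Itgam, the alpha chain of complement receptor 3 (CD11b), is shared by microglia, monocytes and neutrophils. The log2 level of A_55_P1977929 was −2.54 and −2.36 in C-C, −2.44 and −2.51 in C-DE, −2.62 and −2.40 in EE-C and −2.41 and −2.49 in EE-DE. That of A_55_P1977926 was −3.88 and −3.84 in C-C, −3.82 and −3.96 in C-DE, −3.77 and −3.855 in EE-C and −3.70 and −3.73 in EE-DE. In the standard-cage comparison these probes differed by −0.025 and −0.026, with overlapping arrays. The probe with the CA repeat, A_55_P1977934, had log2 levels of 5.44 and 5.245 in C-C, 4.997 and 5.04 in C-DE, 5.15 and 5.20 in EE-C and 5.02 and 5.12 in EE-DE.

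The CA-repeat probe gave the largest change of any marker probe, −0.32 in the standard-cage comparison (range −0.44 to −0.20), and 2.74% of passing probes differed at least as much. Its 4 diesel exhaust arrays lay below its 4 clean air arrays. The other Itgam probes did not share this, and the Itgam mean of −0.12 in the standard-cage comparison rests on it. Among the 19 passing probes that hold the repeat, 7 were lower in the standard-cage comparison and their median change was 0.08. The median log2 level of these 19 probes was 4.9, beside 0.004 over all passing probes and 5.15 for the Itgam CA-repeat probe. Whether the CA-repeat probe reads Itgam RNA was not tested.

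Aif1 (Iba1), a calcium- and actin-binding protein widely used to stain microglia, had log2 levels (A_51_P400543, NM_019467) of 1.44 and 1.24 in C-C and of 1.39 and 1.31 in C-DE. They were 1.43 and 1.36 in EE-C and 1.46 and 1.41 in EE-DE. The change was 0.013 in the standard-cage comparison (range −0.13 to 0.15) and 0.04 in the enriched comparison (range −0.02 to 0.10), with overlapping arrays in both. In the diesel housing comparison it was 0.08 (range 0.014 to 0.15), without overlap.

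Cd68, a lysosomal glycoprotein of phagocytes, was read by 2 probes, which differed in direction in 3 of the 5 comparisons. The probe A_55_P1961943 carries an Ensembl transcript name and so stayed outside the filter on GenBank and RefSeq accessions. Its log2 level was 0.48 and 0.53 in C-C, 0.48 and 0.44 in C-DE, 0.61 and 0.62 in EE-C and 0.78 and 0.635 in EE-DE. The enriched arrays all lay above the standard-cage arrays, with a mean difference of 0.18 and nearest values of 0.61 and 0.53. The change was −0.05 in the standard-cage comparison, 0.09 in the enriched comparison and 0.25 in the diesel housing comparison (range 0.16 to 0.34). It was 0.11 in the clean air housing comparison and 0.20 in the combined comparison.

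The passing Cd68 probe, A_55_P2067583 (NM_009853), was dim, with a processed intensity of 47.9 to 59.6 over the 8 arrays. Its log2 level was −3.52 and −3.88 in C-C, −3.60 and −3.53 in C-DE, −3.59 and −3.54 in EE-C and −3.71 and −3.63 in EE-DE. The C-C arrays were 0.36 apart and enclosed every other array. It differed by 0.14 in the standard-cage comparison (range −0.075 to 0.35), by −0.10 in the enriched comparison (range −0.17 to −0.04) and by −0.11 in the diesel housing comparison, where the first probe gave 0.25. In the clean air housing comparison (0.14) and the combined comparison (0.03) it had the sign of the first probe. Without C-C array 2 the standard-cage value was −0.04.

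**Figure D2:**
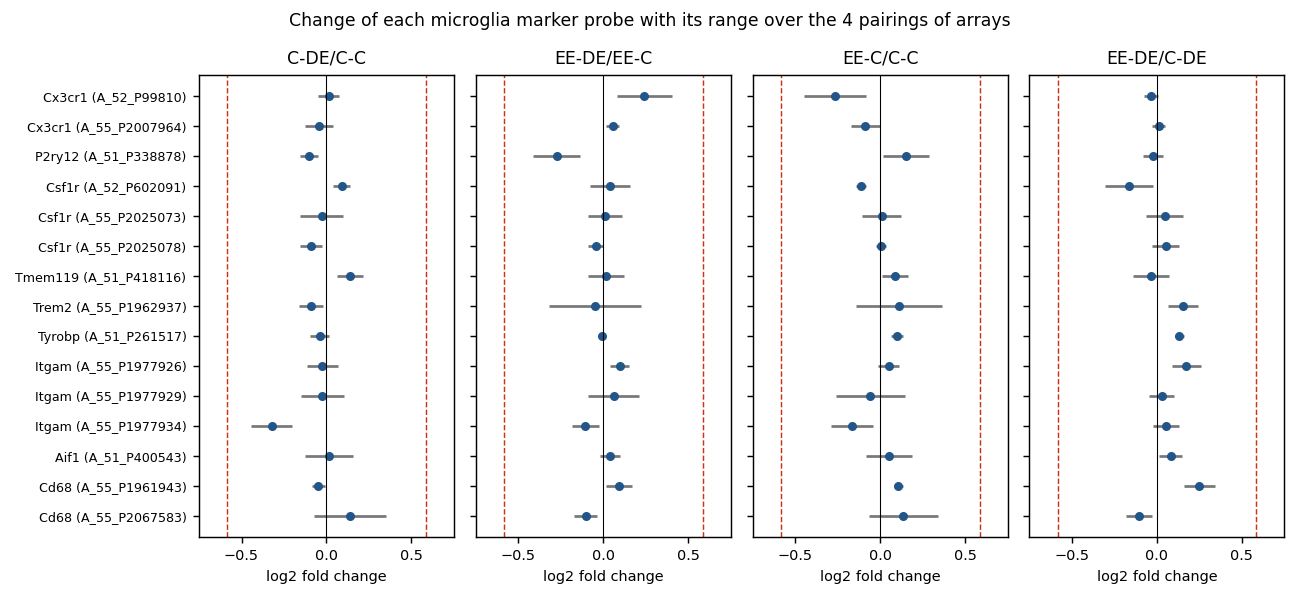
Log2 fold change (x axis) of each of the 15 marker probes (rows) in exposure under standard cage (C-DE/C-C), under enrichment (EE-DE/EE-C), and housing in clean air (EE-C/C-C) and in diesel exhaust (EE-DE/C-DE). Points are differences of pool means, lines the range over the 4 pairings of arrays, and dashed lines mark 1.5-fold. No line reaches 1.5-fold in the 4 comparisons, and P2ry12 lies below 0 in both exposure comparisons.

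As a group, the marker genes stayed close to the rest of the array. The median change of the 9 genes was −0.015 in the standard-cage comparison (3 higher, 6 lower), beside −0.007 over all passing probes. In the enriched comparison it was 0.001 (5 higher, 4 lower), beside −0.007. In the combined comparison, which shares its control pool with the standard-cage comparison and the clean air housing comparison, it was 0.03 beside −0.006. Housing gave 0.09 in the clean air housing comparison (6 higher, 3 lower), beside 0.007, and −0.013 in the diesel housing comparison, beside 0.0. Neither value was stable. The first was 0.001 with normexp background correction and −0.022 to 0.146 with 1 array left out, and the second was −0.059 to 0.072 over the processing alternatives.

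The size of the changes, whatever their direction, was also near that of other probes. The median absolute change of the 14 marker probes was 0.067 in the standard-cage comparison, beside 0.059 over all probes, and 0.05 in the enriched comparison, beside 0.06. It was furthest from the background in the clean air housing comparison, at 0.094 beside 0.068. The arrays of the compared pools did not overlap for 6 of 14 marker probes in the standard-cage comparison (40.9% of all probes) and for 8 of 14 in the enriched comparison (34.2%). The counts were 4 of 14 in the combined comparison (47.1%), 7 of 14 in the clean air housing comparison (37.7%) and 6 of 14 in the diesel housing comparison (42.2%).

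The difference between the exposure effects, the enriched comparison minus the standard-cage comparison, was between −0.24 and 0.16 for the 9 genes. The passing Cd68 probe, whose C-C arrays lay 0.36 apart, gave −0.24, and the brighter Cd68 probe gave 0.14. The difference for P2ry12 was −0.17, but −0.04 without EE-C array 1 and −0.06 after correction for the local deviation. That for Tmem119 was −0.12, and −0.03 without EE-DE array 2. Leaving out C-C array 2 took the passing Cd68 probe to −0.06, and leaving out EE-C array 1 took Trem2 to 0.26. Cx3cr1 gave 0.16 and Itgam 0.14, and Aif1, Csf1r, Trem2 and Tyrobp lay between 0.011 and 0.04. Cx3cr1 was 0.10 without C-C array 1 and 0.25 with normexp background correction. Itgam was 0.11 without EE-C array 1 and 0.17 without EE-C array 2. Aif1 was −0.07 without C-C array 1 and 0.13 without C-C array 2, and Trem2 was −0.18 without EE-C array 2. These differences have no test, and all of them were under 1.5-fold.

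The duplicate arrays show what size of change could be read. Over all passing probes EE-C had the widest duplicates, with a median difference of 0.10 between its arrays, against 0.06 to 0.07 in the other pools. The duplicates of EE-C differed by 1.5-fold or more at 460 probes, and those of the other 3 pools at 157 to 265, whereas 125 to 205 probes were called between pools. Among the marker probes the median difference between the arrays of a pool was 0.115 for C-C and 0.07 for C-DE, and in enriched mice it was 0.06 (EE-C) and 0.08 (EE-DE). The largest difference was 0.36 for C-C (Cd68) and 0.14 for C-DE (Itgam), and for the enriched pools it was 0.44 (EE-C, Trem2) and 0.21 (EE-DE, Csf1r). In the standard-cage comparison, 6 of 14 passing marker probes differed by more than the duplicate difference of both pools, beside 28.2% of all passing probes. The count was 5 in the enriched comparison (21.7% of all), 4 in the combined comparison (34.1%), 3 in the clean air housing comparison (24.7%) and 4 in the diesel housing comparison (29.4%).

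The pools had no common order. C-DE had the lowest mean for 7 of 15 marker probes, EE-C for 4, C-C for 3 and EE-DE for 1, and the highest mean was in EE-DE for 5, in C-DE for 4, in EE-C for 4 and in C-C for 2. Of 42 pairs of neighbouring pools in the orders of the 14 passing probes, 13 had arrays that did not overlap, a share of 31% beside 23% over all passing probes.

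The levels of the 9 genes did not follow each other from array to array. Over the 8 arrays of 4 pools, the Pearson's r of the 36 gene pairs had a median of 0.07, 13 pairs were below 0 and 5 were above 0.5. P2ry12 and Trem2 gave the highest value (0.71), and both had their highest level on EE-C array 1. Cx3cr1 and P2ry12 gave the lowest (−0.77), and on EE-C array 1 the Cx3cr1 probe A_52_P99810 had its lowest level (−0.19). On that array the local deviation was 0.16 around the P2ry12 spot, 0.14 around the Trem2 spot and −0.044 around this Cx3cr1 spot. These are descriptions over arrays that share pools, with differences close to those between duplicates.

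The mean of the 9 centred log2 levels, taken as the marker profile, spanned 0.12 over the 8 arrays. In each pool array 1 lay above array 2, with 0.038 and −0.062 in C-C and 0.057 and 0.001 in EE-C. The profile thus holds differences between repeat arrays of the same RNA. Genes like it were picked from many on 8 arrays and need not vary with the pools. Of 12778 other genes, the 10 with the highest Pearson's r with it were Rpl35 (0.98), Creg1 (0.96), St6galnac2 (0.95), Myoc (0.94), Efemp1 (0.94), Zfp503 (0.93), Cd14 (0.93), Zfp128 (0.92), Retnlg (0.92) and Pigz (0.92). Cd14, a co-receptor for bacterial lipopolysaccharide on phagocytes, spanned 0.34 over the arrays, and Retnlg, a neutrophil gene, spanned 1.72.

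Counts of called genes in lists of other microglia genes say little by themselves. Of all passing probes, 0.576% were called in the standard-cage comparison and 0.944% in the enriched comparison. The other comparisons lay between these shares. A count of 0 in a gene list of the sizes below is therefore near what the whole array gives. Of 16 further genes of resting microglia, all measured, 0 were called in each comparison, with medians of −0.001 in the standard-cage comparison and −0.013 in the enriched comparison. P2ry13, a further ADP receptor, differed by 0.10 and 0.19 in these comparisons, and Siglech, a sialic acid-binding lectin, by −0.10 and −0.09.

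Of 21 genes known to rise in activated microglia, all measured, 0 were called in each comparison, which is likewise near what the whole array gives. Their median was 0.014 in the standard-cage comparison (14 of 21 higher) and 0.02 in the enriched comparison (15 higher). It was 0.098 in the combined comparison (17 higher), 0.058 in the clean air housing comparison (15 higher) and 0.056 in the diesel housing comparison (17 higher). Apoe, a lipid carrier, differed by 0.01 in the standard-cage comparison and 0.02 in the enriched comparison, Cst7, a cathepsin inhibitor, by 0.08 and 0.32, and Lpl, a lipase, by −0.12 and 0.01. The highest value was that of Clec7a, a receptor for fungal glucans, with 0.54 in the diesel housing comparison (range 0.42 to 0.66), and it was picked out after its value was seen.

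Of 17 phagocytosis and complement genes 16 were measured and 0 were called. In the diesel housing comparison 14 of 16 were higher, with a median of 0.07, and in the standard-cage comparison 9 of 16 were higher, with a median of 0.01. The count was 12 in the clean air housing comparison, 14 in the combined comparison and 9 in the enriched comparison. C1qa, C1qb and C1qc encode the chains of complement C1q, which tags synapses and debris for uptake. They differed by 0.02, 0.055 and −0.01 in the standard-cage comparison, and by 0.22, 0.05 and 0.05 in the enriched comparison.

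Of 8 genes for ligands of microglial receptors, not all of them receptors among the markers, 7 were measured and 0 were called. Cx3cl1 (fractalkine) differed by 0.007 in the standard-cage comparison and −0.07 in the enriched comparison, Csf1 by −0.09 and −0.05, and Il34 by 0.009 and −0.06. Of 14 signalling partners 13 were measured, and Pik3cg, a phosphoinositide kinase subunit of leukocytes, rose in the diesel housing comparison (0.62, range 0.56 to 0.68) and differed by −0.50 in the standard-cage comparison (range −0.74 to −0.265). Itgb2, the beta chain that pairs with Itgam, differed by 0.13 in the standard-cage comparison and 0.10 in the enriched comparison. The kinase Syk, which acts downstream of Tyrobp, differed by −0.21 and −0.20.

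Of 11 transcription factors of microglia 9 were measured and 0 were called. Irf8, which macrophages need for their development, differed by 0.03 in the standard-cage comparison and −0.013 in the enriched comparison, and Runx1 by −0.05 and 0.09. Of 17 inflammatory mediators 12 were measured, and Cxcl10, an interferon-induced chemokine, rose in the standard-cage comparison (0.74, range 0.31 to 1.17) and in the combined comparison (0.59, range 0.25 to 0.93). In the enriched comparison it differed by 0.19 (range −0.10 to 0.47). The other 11 mediators were called in 0 of the 5 comparisons.

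Macrophages of the borders of the brain share several markers with microglia. Of 10 genes known for them 9 were measured and 0 were called. Higher were 6 of 9 in the standard-cage comparison, 2 in the enriched, 7 in the combined and 8 in the diesel housing comparison. In the clean air housing comparison 9 of 9 were higher, with a median of 0.12. Mrc1, a mannose receptor, differed by 0.11 there. Lyve1, a hyaluronan receptor, differed by 0.46 (range 0.17 to 0.75) and F13a1, a coagulation factor subunit, by 0.51 (range 0.20 to 0.83), both picked out after their values were seen. Both values moved when single arrays were left out. That of F13a1 was 0.205 without EE-C array 1 and 0.82 without EE-C array 2, and that of Lyve1 was 0.63 without EE-C array 1, 0.30 without EE-C array 2, 0.59 without C-C array 1 and 0.34 without C-C array 2, so that some of these lay past 1.5-fold and others did not. The summed linear level of the 9 genes was 25.4 to 26.2 in C-C, 27.7 to 28.9 in EE-C, 25.4 to 26.5 in C-DE and 26.5 to 27.3 in EE-DE. Neutrophil and monocyte genes were also higher with enrichment. In the clean air housing comparison this held for 9 of 9 (median 0.27) and 4 of 4 (median 0.11). The arrays did not overlap there for only 1 gene of each list. In the diesel housing comparison it held for 9 of 9 (median 0.81) and 4 of 4 (median 0.49), with 8 and 4 not overlapping. What part any of these cells had in the higher Tyrobp signal of enriched mice was not tested.

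**Figure D3:**
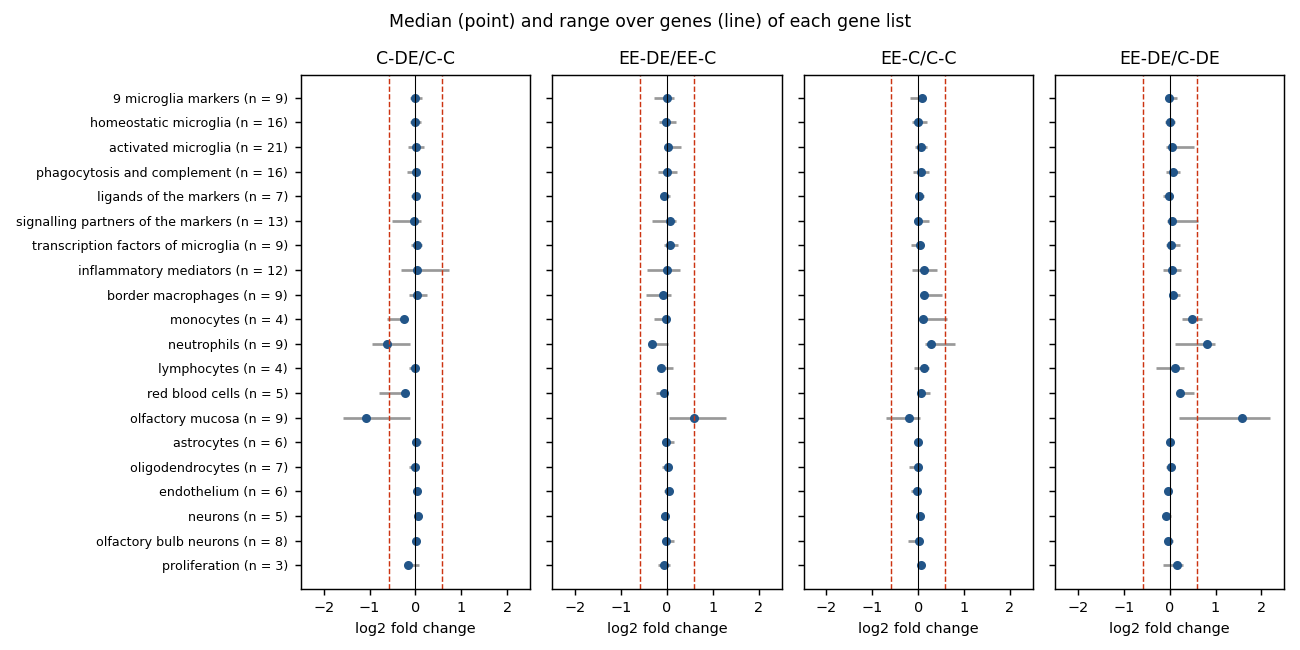
Median log2 fold change (points) and range over genes (lines) of the 9 microglia markers and of 19 other gene lists (rows, with the number of genes measured) in 4 comparisons of pools. Dashed lines mark 1.5-fold. Medians of the microglia lists lie near 0 in the 4 comparisons, whereas neutrophil and olfactory mucosa genes lie low in the standard-cage comparison and high in the diesel housing comparison.

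Lists of other cells and of olfactory mucosa held genes past the threshold. Of 9 measured neutrophil genes 6 fell in the standard-cage comparison, with a median of −0.625 over the 9, and the same 6 rose in the diesel housing comparison, with a median of 0.81. The changes in the standard-cage comparison were −0.89 for S100a8 and −0.875 for S100a9, the subunits of calprotectin, −0.95 for Ltf, which encodes lactoferrin, −0.59 for Mpo, a granule peroxidase, −0.73 for Ngp and −0.625 for Retnlg. The ranges of Ngp (−1.51 to 0.05) and Retnlg (−1.39 to 0.14) crossed 0, as did that of Ngp in the diesel housing comparison (−0.47 to 1.82). In the enriched comparison 8 of the 9 were also lower and 0 were called, with a median of −0.32, and the arrays overlapped for all but Elane, a granule elastase (−0.355, range −0.52 to −0.19). Mpo was also past the threshold in the clean air housing comparison (0.79), but its range of −0.27 to 1.85 crossed 0. The summed linear level of the 9 genes was 4.66 to 5.58 in C-C, 2.98 to 3.35 in C-DE, 3.88 to 9.92 in EE-C and 4.06 to 6.20 in EE-DE. Of 9 olfactory mucosa genes 6 fell in the standard-cage comparison, with a median of −1.08, and 4 rose in the enriched comparison, with a median of 0.58. In the standard-cage comparison Cyp2g1 differed by −1.59 and Cyp2f2 by −1.08, both of them cytochrome P450 genes, Krt8 by −1.40 and Krt18 by −1.25, both keratins, Ugt2a1, a glucuronosyltransferase, by −1.20 and Cnga4, a subunit of the olfactory cyclic nucleotide-gated channel, by −0.95. In the enriched comparison the arrays did not overlap for Cnga4 (0.72, range 0.03 to 1.41). The ranges of the other 3 crossed 0, with Cyp2g1 at 1.30 (−0.13 to 2.73), Cyp2f2 at 0.74 (−0.30 to 1.78) and Krt18 at 0.79 (−0.03 to 1.61). The same 6 genes as in the standard-cage comparison rose in the diesel housing comparison, by 1.26 (Cnga4) to 2.19 (Cyp2g1). In the combined comparison Cyp2g1 (0.60, range −0.29 to 1.5) and Cyp2f2 (0.62, range −0.18 to 1.42) were past the threshold with ranges that crossed 0, and so was Cyp2g1 in the clean air housing comparison (−0.695, range −2.23 to 0.84). The sums of these 9 genes overlapped between C-C (66.0 to 80.0) and C-DE (59.5 to 68.7).

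The summed linear level of the 9 microglia markers was 18.8 to 19.8 in C-C, 18.6 to 19.3 in C-DE, 19.1 to 20.3 in EE-C and 19.3 to 20.1 in EE-DE. Itgam is also a gene of neutrophils and monocytes. Its probes without the repeat, both dim, differed by −0.025 and −0.026 in the standard-cage comparison, where neutrophil genes fell. Whether Itgam followed the neutrophil genes was not tested. Of 4 measured monocyte genes, Hp fell in the standard-cage comparison (−0.62) and rose in the diesel housing comparison (0.695), and Chi3l3 rose in the clean air housing comparison (0.63, range 0.02 to 1.23). Of 5 measured red blood cell genes, Ahsp, a haemoglobin chaperone, fell in the standard-cage comparison (−0.80). The lists for lymphocytes, astrocytes, oligodendrocytes, endothelium, neurons, olfactory bulb neurons and proliferation had 0 genes called in the 5 comparisons.

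**Figure D4:**
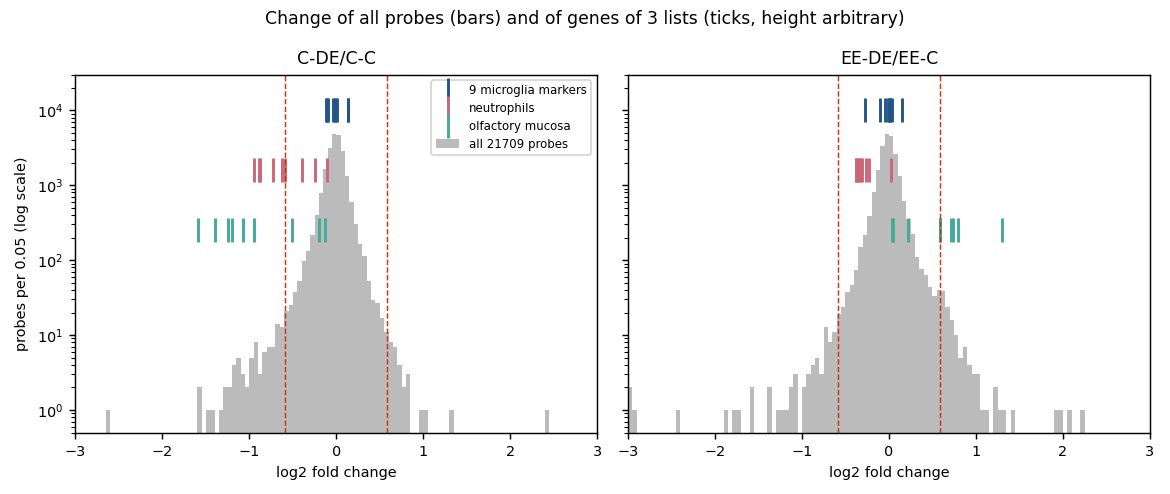
Log2 fold change of all 21709 passing probes (grey bars, number of probes per 0.05 on a log axis) in the standard-cage comparison and the enriched comparison, with the genes of 3 lists as ticks at arbitrary height. Dashed lines mark 1.5-fold, and values beyond 3 in size stand in the outermost bars. The 9 microglia markers lie between −0.12 and 0.14 in the standard-cage comparison and between −0.27 and 0.15 in the enriched comparison, inside the dashed lines, while neutrophil and olfactory mucosa genes extend past them in the standard-cage comparison.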

How the data were processed

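RNA of olfactory bulbs was pooled by group according to the methods, and each of the 4 pools was divided over 2 arrays (Agilent one-colour, Cy3). The deposited intensity values are the scanner's processed signals, which Feature Extraction 10.7.3.1 had corrected for local background and spatial trend, without scaling across arrays. The authors' deposited series table holds log2 values, which lay within 0.02 of those used here for 99.4% of probes on all 8 arrays, after the same 75th percentile scaling and centring of each probe on its median. That scale, centring and direction were inferred from this match.

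For each array, log2 of the processed signal minus that of the 75th percentile over noncontrol spots was taken. Of 59305 noncontrol spots, 35736 had a GenBank or RefSeq accession, and 23956 of these passed the software's well-above-background flag on every array and had no outlier flag, giving 21709 probes after spots of a probe were averaged. A gene's value is the mean of its passing probes. Arrays were assigned to groups by the sample titles and compared with Python 3.11.15 (numpy 2.4.6, pandas 2.3.3, matplotlib 3.10.9). R 4.3.3 with limma 3.58.1 supplied normexp (offset 50) and quantile normalization for the alternatives. A change was called at 1.5-fold, the threshold of the study, on the mean of both arrays. No test was made, because a group is 1 pool. The number of arrays and the signal over background limit the precision. The calling step was run on simulated data with planted changes above the threshold. This checks the code only and says nothing about changes as small as those of the markers.

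The marker genes and the 19 other gene lists were chosen with earlier results of these data known. Named are every marker, list genes called in any comparison, up to 3 further genes of a list in list order, and the 10 genes most like the marker profile. Clec7a, Lyve1 and F13a1 were named after their values were seen. A listed gene that this rule names is not reported here. Gene names are those of the array. A RefSeq table held 27235 of the 28685 RefSeq-named probes' accessions and did not list the accession of the passing Cd68 probe, and Ly6c2 was matched by no probe name. Alternatives were other background corrections, scalings, filters and probe choices, a local spatial correction, the series table and leaving out each array.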

Additional observations from a re-analysis of the deposited data

Results flagged for a closer look

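A Cd68 probe outside the filter on accessions (A_55_P1961943, named by an Ensembl transcript) lay above the C-C arrays in both enriched pools. The change was 0.202 in the combined comparison (range 0.106 to 0.299) and 0.108 in the clean air housing comparison (range 0.08 to 0.137), and the passing Cd68 probe gave 0.03 and 0.14 in these comparisons, with overlapping arrays in both.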

How the results depend on the processing

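No paired analysis was possible because the 2 arrays of a pool are 1 replicate and no test exists. Under the alternatives, 675 values of single marker genes were computed, of which 30 moved by more than the spread between arrays, 41 had the other sign than the reported value and 0 passed 1.5-fold. The signs of Tyrobp in the 5 comparisons and of P2ry12 in both exposure comparisons held under each alternative. Trem2 in the clean air housing comparison (0.112) was −0.17 with normexp, and Cd68 in the enriched comparison (−0.104) was 0.025. The count of called marker genes, taken under each alternative in each comparison, was 0 in 85 of 85 cases. Among these, the 2-fold threshold and the requirement of 1.5-fold in all 4 pairings are stricter than the reported call and could give no other count. The filters on positive and significant signal and on signal in 1 group, and leaving out the outlier filter, kept every marker value as reported. Their counts and values were therefore fixed as well. The median change of the 9 genes was 0.001 in the clean air housing comparison and −0.059 in the diesel housing comparison with normexp background correction. With the brightest probe of each gene, which for Itgam is the CA-repeat probe, it was −0.044 in the enriched comparison and 0.051 in the diesel housing comparison, and with all noncontrol spots it was 0.072 in the diesel housing comparison. The cause of these shifts was not tested. Leaving out each array in turn gave −0.077 to −0.005 in the standard-cage comparison, −0.027 to 0.019 in the enriched comparison, −0.021 to 0.097 in the combined comparison, −0.022 to 0.146 in the clean air housing comparison and −0.031 to 0.054 in the diesel housing comparison.

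Calls over all probes depended on the background correction and the filter. With normexp 38 probes were called in the standard-cage comparison, beside 125, 136 in the enriched comparison, beside 205, 51 in the combined comparison, beside 177, 149 in the clean air housing comparison, beside 179, and 53 in the diesel housing comparison, beside 138. With the filters on positive and significant signal and on signal in 1 group, which admit dimmer spots, there were 572 and 561 in the standard-cage comparison, 827 and 879 in the enriched comparison, 772 and 824 in the combined comparison, 645 and 590 in the clean air housing comparison and 674 and 686 in the diesel housing comparison. With all noncontrol spots 220 were called in the standard-cage comparison, 378 in the enriched, 397 in the combined, 319 in the clean air housing and 250 in the diesel housing comparison.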
